A study of Mus musculus with 2 samples.

Results

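Of the 2202 miRNA genes counted in the adrenal gland of young mice, 646 carry a symbol of Mir followed by a number of 1000 or more. They were taken by symbol alone from the GENCODE M21 annotation, with any letter or copy suffix, and 3 further genes in the distal part of the imprinted Dlk1-Dio3 miRNA cluster on chromosome 12 were left out. The libraries are small RNA sequencing of adrenal glands from female B6CASTF1/J mice, the F1 hybrid of the C57BL/6J and CAST/EiJ strains, at an age of 14 days. They form 1 group of 2 biological replicates with no treatment, so no conditions can be compared. The label of replicate 1 names 3 females and that of replicate 2 a single numbered female, and both carry 1 donor identifier. Differences between the replicates therefore measure the spread between these 2 libraries, which may in part be technical.

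MicroRNAs are numbered in the order in which they were registered, and a gene shared between species usually keeps its number. Low numbers therefore belong mostly to miRNAs that were cloned early, and high numbers mostly to those found later in deep sequencing of small RNAs. A canonical miRNA is cut from its primary transcript by Drosha with Dgcr8, then from its hairpin by Dicer, and is loaded into an Argonaute protein, where its seed (bases 2 to 8) pairs with target messenger RNAs. Some late entries reach Dicer by other routes. A mirtron is a short intron whose splicing, not Drosha, frees the hairpin, and some small nucleolar RNAs (snoRNAs) and Cajal body RNAs (scaRNAs), which guide the chemical modification of ribosomal and spliceosomal RNA, can also be cut into miRNA-sized pieces.

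Sequences of some of the genes show these kinds of locus. Of the 646 genes, 595 matched a RefSeq miRNA gene by symbol and 584 had a RefSeq mature sequence (build GRCm38.p6). The hairpins below overlap an annotated scaRNA or snoRNA on their own strand, and the capitals mark the mature sequences that RefSeq annotates in them. Mir1839 lies at chr7:81529916-81529988 on the plus strand, Mir1843a at chr12:80391613-80391677 on the minus strand, Mir1843b at chr1:159340358-159340423 on the plus strand, Mir3068 at chr12:87437679-87437757 on the minus strand and Mir1291 at chr15:98519762-98519878 on the minus strand.
Mir1839: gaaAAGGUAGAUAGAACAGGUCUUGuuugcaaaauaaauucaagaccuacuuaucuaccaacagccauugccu
Mir1843a: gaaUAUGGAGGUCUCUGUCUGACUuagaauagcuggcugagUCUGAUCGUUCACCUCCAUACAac
Mir1843b: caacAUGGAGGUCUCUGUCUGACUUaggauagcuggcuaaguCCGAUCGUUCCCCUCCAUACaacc
Mir3068: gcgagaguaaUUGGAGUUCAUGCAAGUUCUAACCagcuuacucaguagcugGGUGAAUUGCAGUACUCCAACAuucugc
Mir1291: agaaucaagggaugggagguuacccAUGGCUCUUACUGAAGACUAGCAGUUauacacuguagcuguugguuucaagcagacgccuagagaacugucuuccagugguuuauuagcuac

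The next hairpins fill a whole annotated intron, so that they begin with the GU and end with the AG of the splice sites. Mature sequences are again in capitals. Mir1981 lies at chr1:184822407-184822488 on the minus strand in Marc2, which encodes a mitochondrial reductase, Mir3547 at chr17:25245551-25245638 on the minus strand in Baiap3, and Mir1224 at chr16:20604452-20604536 on the plus strand in Vwa5b2. Mir1981 was abundant among the late-named genes, Mir3547 was scarce and Mir1224 was below the detection minimum.
Mir1981: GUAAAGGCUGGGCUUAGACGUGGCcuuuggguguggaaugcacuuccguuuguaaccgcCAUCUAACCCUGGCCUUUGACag
Mir3547: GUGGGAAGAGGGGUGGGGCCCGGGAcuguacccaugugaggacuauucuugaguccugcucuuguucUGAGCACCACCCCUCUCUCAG
Mir1224: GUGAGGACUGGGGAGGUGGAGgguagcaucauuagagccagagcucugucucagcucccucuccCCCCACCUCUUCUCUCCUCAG

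Mature sequences of the most abundant members follow, with the seed in capitals, because the seed sets which messenger RNAs a miRNA can pair with. Of the 20 most abundant members, as far as RefSeq gives a mature sequence, Mir3102 shared a seed with miR-702-5p and Mir1983 with miR-412-3p, and the others shared none with another gene of the table.
miR-1839-5p: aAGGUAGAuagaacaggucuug
miR-1981-5p: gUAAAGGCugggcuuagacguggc
miR-1981-3p: cAUCUAACccuggccuuugac
miR-1843a-5p: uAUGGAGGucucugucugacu
miR-1843b-5p: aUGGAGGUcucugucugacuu
miR-1306-3p: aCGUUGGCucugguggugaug
miR-1306-5p: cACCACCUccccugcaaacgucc
miR-3068-5p: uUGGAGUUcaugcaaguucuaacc
miR-3102-5p: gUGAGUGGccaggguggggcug
miR-1983: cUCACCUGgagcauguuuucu
miR-1247-5p: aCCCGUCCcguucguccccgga
miR-1249-3p: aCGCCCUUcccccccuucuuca
miR-1291: aUGGCUCUuacugaagacuagcaguu

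The late-named genes were numerous and scarce. The minimum for detection was 10 counts in both libraries, a level of 2.63 CPM in replicate 1 and 1.99 CPM in replicate 2, where CPM are counts per 1000000 counts on miRNA genes. Of the 646 genes, 58 were detected (8.98%), against 16.3% of all 2202 genes. Any count in either library was seen for 359 of them (55.6%), against 35.9% of all genes. Of the 525 genes numbered below 1000, let-7 genes included, 355 had any count (67.6%) and 287 were detected (54.7%). Of the 1021 genes with Gm names, 69 had any count (6.76%) and 8 were detected (0.784%). The number of late-named genes detected was 222 at a minimum of 1 count, 95 at 5 and 14 at 100. A count of 0 allows up to 3 counts, which is 0.790 CPM in replicate 1 and 0.596 CPM in replicate 2, so that the 287 genes without a count are not shown to be absent from the gland.

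Their share of all miRNA counts was 0.246% ± 0.0569 (SD, n = 2). It was 0.286% in replicate 1 (10864 counts, Wilson 95% interval 0.281 to 0.292) and 0.206% in replicate 2 (10355 counts, 0.202 to 0.210), so the intervals do not overlap. Replicate 2 held 21.5% of its counts on Mir122, the miRNA of hepatocytes, against 0.290% in replicate 1. With Mir122 left out of the totals the share was 0.274% ± 0.0177. These intervals and the limits of a count of 0 reflect counting error alone, since PCR copies of a molecule were not told apart.

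The part of the genes that was detected differed between number ranges. It was 19 of 84 genes in the 1000s (22.6%), 0 of 4 in the 2000s, 18 of 88 in the 3000s (20.5%) and 9 of 51 in the 5000s (17.6%). It was 5 of 207 genes in the 6000s (2.42%) and 7 of 212 numbered 7000 and above (3.30%). No member carries a number between the 3000s and the 5000s. For comparison, 74.6% of genes numbered below 250, 48.6% of those from 250 to below 500 and 32.4% of those from 500 to below 1000 were detected. The part with any count followed another order, with 58.3% in the 1000s, 61.4% in the 3000s, 72.5% in the 5000s, 41.1% in the 6000s and 62.3% from 7000 up. The highest count of any gene numbered 7000 and above was 98, that of Mir8112, against 4236 in the 1000s.

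**Figure D1:**
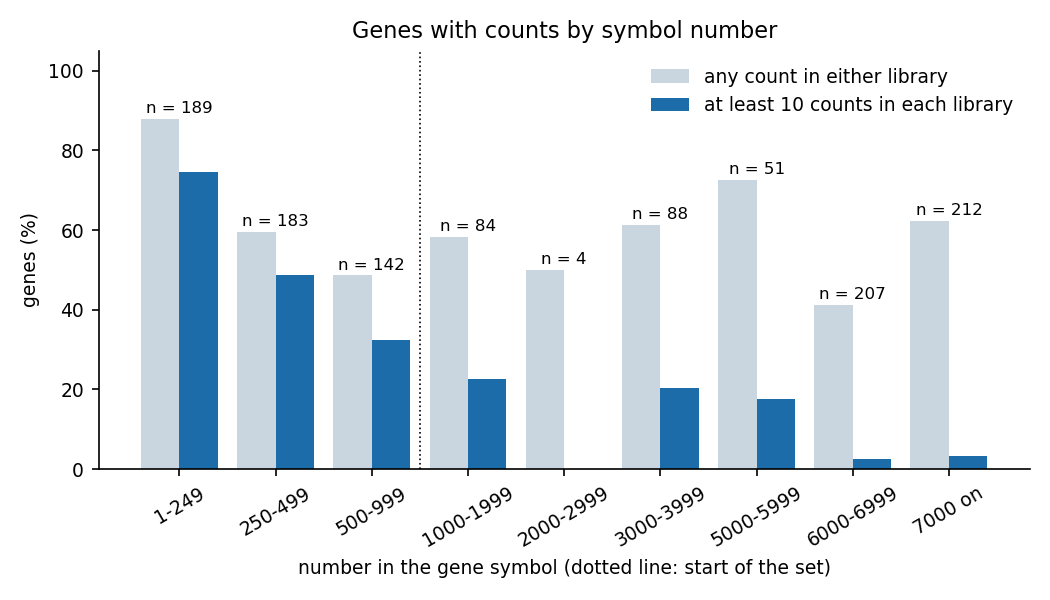
Percent of miRNA genes (vertical axis) with any count in either library (pale bars) and with at least 10 counts in each library (dark bars), by the number in the symbol (horizontal axis, let-7 and Gm names not shown). Detection falls from 74.6% for numbers below 250 to 3.30% for 7000 and above, while the pale bars stay between 41.1% and 72.5% for the late ranges with more than 4 genes.

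Values just inside and just outside the rule were mostly 0. The lowest-numbered members were Mir1187, Mir1188 and Mir1190, with 0, 70 and 0 counts in replicate 1 and 0, 87 and 0 in replicate 2. The highest-numbered genes below 1000 were Mir882, Mir883a and Mir883b, each with 0 counts in both libraries. The 3 genes of the distal imprinted region that were left out were Mir1193 with 383 and 645 counts, Mir3072 with 196 and 293 and Mir1197 with 1 and 4.

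Mir1839 was the most abundant late-named gene, with 4236 counts (1116 CPM) in replicate 1 and 3542 counts (703.6 CPM) in replicate 2. Its mean was 909.6 ± 291 CPM (SD, n = 2), rank 81 of all miRNA genes, and it was the only member among the first 100. It held 39.0% and 34.2% of the members' counts. The gene (ENSMUSG00000104618.1) lies in exonic sequence of a long noncoding RNA, 2900076A07Rik, and 66 of its 73 bases overlap a scaRNA gene that GENCODE also names Mir1839.

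Below it the levels fell steeply. Mir1981 had 753 and 764 counts, or 175.0 ± 32.9 CPM, and Mir1843a 712 and 510 counts, or 144.4 ± 61.0 CPM. Mir5099, an intergenic gene at chr12:36816205-36816278 on the plus strand, had 529 and 422 counts, or 111.6 ± 39.2 CPM. These 4 were the members with a mean of at least 100 CPM. Mir1981, Mir1843a and Mir5099 stood in this order in both libraries, while the SDs around their means overlap. The first 4 members held over 50% of the members' counts on the mean of the libraries, the first 10 held 71.6%, the first 20 held 83.0%, and 40 were needed for 90%.

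**Figure D2:**
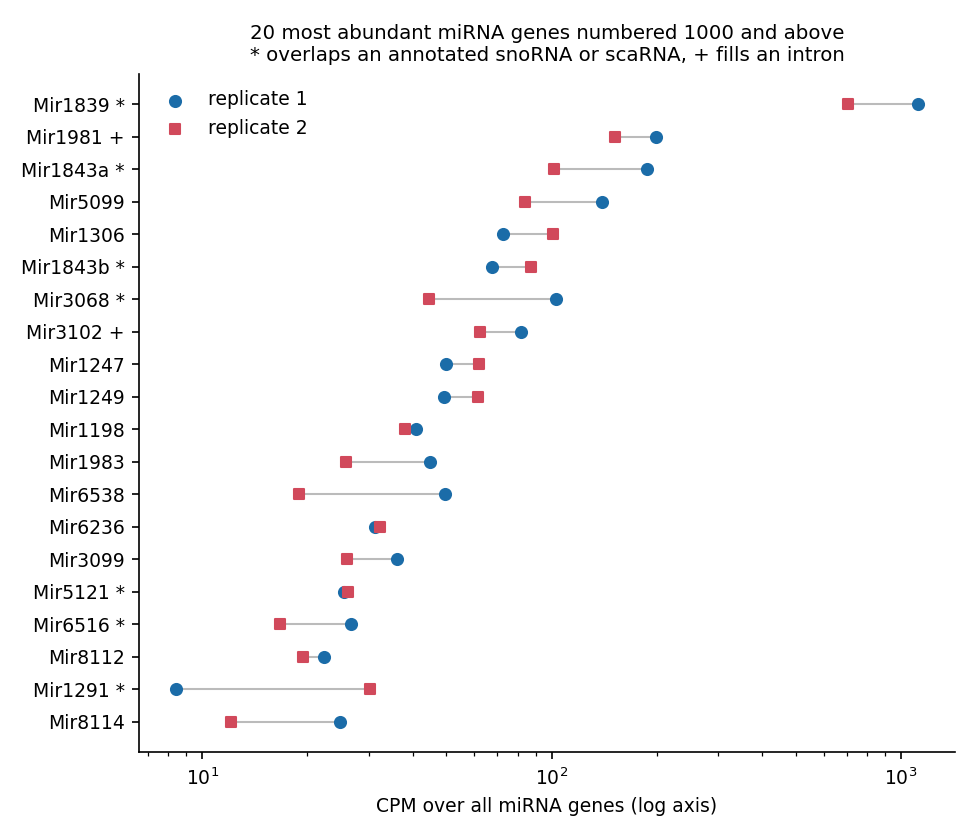
CPM (horizontal log axis) of the 20 most abundant miRNA genes numbered 1000 and above, with replicate 1 as circles, replicate 2 as squares and a line between them. Mir1839 stands apart at 1116 and 703.6 CPM, and Mir1291 has the widest gap, at 8.43 and 30.2 CPM.

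Genes that overlap an annotated small RNA gene carried much of the signal. There were 11 such members (1.70% of the 646), all on the same strand as the small RNA, and 8 of them were detected. They held 54.5% of the members' counts in replicate 1 and 49.6% in replicate 2. Mir1839 decides much of this, and without it the other 10 held 15.5% and 15.4%. Of the 635 members without such an overlap, 50 were detected (7.87%). Annotation of tRNA genes and repeats was not used, so members that overlap those could be among the 635. Overlaps of this kind were 2 of 525 genes numbered below 1000 and 21 of 1021 Gm-named genes, with 2 and 3 detected.

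Mir1843a and Mir1843b overlap Scarna3b and Scarna3a, and lie in CT030161.1 and in an intron of Cop1, which encodes a ubiquitin ligase. Mir1843b had 256 and 440 counts, or 77.4 ± 14.1 CPM. Replicate 2 had the larger value for Mir1843b (87.4 against 67.4 CPM) and the smaller one for Mir1843a (101.3 against 187.5 CPM). The mature sequence miR-1843b-5p is also contained in the hairpin of Mir1843a, and multimapping reads are not in the counts, which makes the values of this pair uncertain. Mir3068 overlaps a snoRNA gene of the same name in an exon of the noncoding gene Gm29362, and had 391 and 224 counts, or 73.7 ± 41.4 CPM.

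The other overlaps had fewer counts. Mir5121 shares 30 of its 74 bases with the snoRNA Snord33 in the host gene Rpl13a, which encodes a ribosomal protein, and had 97 and 132 counts. Mir6516, in the snoRNA host gene Snhg20, overlaps the scaRNA Gm26083 and had 101 and 84 counts. Mir1291 overlaps Snora34 in an intron of Kansl2, a gene of a histone acetylation complex, and had 32 and 152 counts. Mir1949 overlaps a snoRNA gene of the same name and had 73 and 45 counts. Mir3069 lies within Scarna13 in Snhg10 and had 25 and 7 counts, under the minimum in replicate 2. Mir1897 and Mir3084-1 had 0 counts in both libraries.

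For 7 of the 8 detected overlaps RefSeq gives mature sequences, and in all 7 each of them lies wholly inside the small RNA gene. Reads were counted by position over the miRNA gene, so a Dicer product and another fragment of the snoRNA or scaRNA cannot be told apart in these counts.

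**Figure D3:**
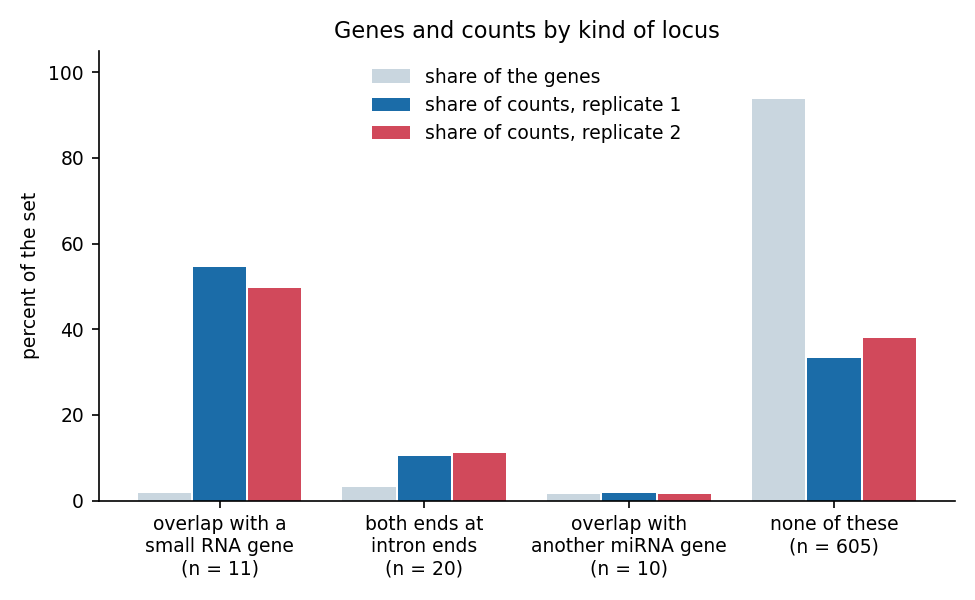
Percent of the 646 genes (pale bars) and of their counts in replicate 1 and replicate 2 (coloured bars) for 4 kinds of locus on the horizontal axis. The 11 genes that overlap a small RNA gene hold 54.5% and 49.6% of the counts and the 605 genes of none of the other kinds hold 33.2% and 37.9%.

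Mirtron positions were a further kind of locus. Both annotated ends of 20 members lay within 5 bases of the ends of 1 intron on the same strand. The hairpins of 18 of these 20 begin with GU and end with AG, which follows largely from how the class was drawn. Over all 646 members, these 18 included, 33 hairpins do so. Of the 20, 16 had a count and 3 were detected. These were Mir1981, Mir3102 and Mir3547, which differ in level by more than their spread. Mir3102, in a 104-base intron of Arhgef17, had 311 and 314 counts, or 72.1 ± 13.8 CPM. Mir3102 also overlaps an annotated noncoding exon of Arhgef17, so by position it is among the exon members below. Mir3547 had 30 and 20 counts, or 5.94 ± 2.78 CPM. Mir1224 had 6 and 15 counts and was not detected. Together the 20 held 10.4% and 11.0% of the members' counts. By the same rule 1 gene numbered below 1000 and 2 Gm-named genes were mirtron positions.

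A larger group touched an intron end on 1 side only, a class added after the values had been seen. It numbered 210 members, of which 149 had a count (71.0%) and 6 were detected (2.86%). Of these, 193 carry a number of 6000 or more, and 2 of the 193 were detected. The 193 held 2.78% and 3.63% of the members' counts.

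By position, 491 of the 646 genes (76.0%) lay in another gene on the same strand, against 63.4% of the genes numbered below 1000 and 54.7% of all miRNA genes. An exon on the same strand held 159 members, with 25 detected (15.7%). Introns of coding genes held 314, with 17 detected (5.41%), and introns of noncoding genes 18, with 2 detected. Genes only antisense to another gene numbered 58, with 3 detected (5.17%), and intergenic genes 97, with 11 detected (11.3%). In genes numbered below 1000 the same shares were 72.8% for exons, 49.2% for introns of coding genes and 54.7% for intergenic genes. Few members had another miRNA gene within 10 kb on the same strand, namely 44 (6.81%) against 56.6% of the genes numbered below 1000.

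Several leading members lay in exons of coding genes. Mir1306 (chr16:18284239-18284317, minus strand) lies in coding sequence of Dgcr8, the partner of Drosha, and had 275 and 507 counts, or 86.6 ± 20.0 CPM. Mir8112, in an untranslated exon part of Krcc1, had 85 and 98 counts, and Mir8114, in one of Glul, which encodes glutamine synthetase, had 94 and 61. Mir5113, in an untranslated part of Tnrc6b, which encodes a partner of Argonaute, had 50 and 58. Coding sequence was overlapped by 61 members, of which 10 were detected, and untranslated parts alone by 45, of which 6 were detected. Counts over an exon hold any small fragment of the host messenger RNA as well, and the host transcripts were not measured here.

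The other leading members lay in exons outside coding transcripts, in introns or between genes. Mir1247 lies in an exon of Dio3os, the noncoding neighbour of the thyroid hormone deiodinase gene Dio3, and had 189 and 312 counts, or 55.9 ± 8.63 CPM. Mir1249, in a noncoding exon of the coding gene 5031439G07Rik, was close to it with 187 and 310 counts, or 55.4 ± 8.72 CPM, and these 2 genes do not differ beyond their spread. Mir1198, in an intron of the X-linked gene Gripap1, had 155 and 192 counts, or 39.5 ± 1.90 CPM. Mir3099, in an intron of Usp29, had 137 and 131 counts. Mir6538, in an intron of Rnf144a, had 188 and 95 counts, so its CPM in replicate 1 (49.5) was well above that in replicate 2 (18.9). The intergenic genes Mir1983, Mir6236 and Mir6240 had 170 and 130, 119 and 163, and 59 and 49 counts. Intergenic here refers to GENCODE genes alone, and overlaps of these genes with tRNA genes or repeats were not looked for.

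A list of 12 genes whose number also names a human miRNA had 11 members in the set, of which 5 were detected (45.5%). These were Mir1306, Mir1247, Mir1249, Mir3074-1 and Mir3064, the last in Ddx5, an RNA helicase of the Drosha complex. Mir1298 and Mir1264, both in introns of Htr2c, a serotonin receptor gene, had 4 and 14 and 0 and 1 counts. The list is not complete, since Mir1291 for example is not on it.

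In the proximal part of the imprinted Dlk1-Dio3 region, 6 members lie and 3 were detected. Mir1188, in an intron of the noncoding RNA Rian, had 70 and 87 counts. Mir3544, on the opposite strand of Mir337, had 82 and 53. Mir3070a and its neighbour Mir3070b had 16 and 15 and 9 and 12 counts, and share the mature sequence miR-3070-5p. All 6 together held 1.64% of the members' counts in each library. Bulk tissue cannot tell fewer cells that make a miRNA from less of it in each cell.

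The mature sequence of Mir3962 stood apart from those of the other detected members, and it is described here because of that value. Among 87 mature sequences of detected members, compared with 693 of genes numbered below 1000 and let-7 genes, the longest shared run of bases had a median of 8. In miR-3962, from chr1:194822001-194822064 on the plus strand, it was 17 bases, shared with let-7g-5p, and no other exceeded 11. Capitals mark the shared run.
miR-3962: AGGUAGUAGUUUGUACAuuu
let-7g-5p: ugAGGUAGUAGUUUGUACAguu
The run starts at base 1 of miR-3962 and at base 3 of let-7g-5p, so their seeds are not the same. Mir3962 had 13 and 10 counts, where Mirlet7g had 317839 and 373549.

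Of 58 detected members, 3 were called higher and 0 lower in replicate 2, against 9.22% higher and 8.66% lower of all 358 detected genes. A call needed a Benjamini-Hochberg adjusted p under 0.05 in the exact two-sided binomial test of the counts, after TMM scaling, together with a 2-fold difference. Without the ratio minimum 19 of the 58 passed (32.8%), against 67.9% of all detected genes. The members had fewer counts, with a median of 57.5 over both libraries against 1027 for all detected genes, which limits what this test can call. Their median log2 ratio was -0.05, against -0.06 for all detected genes. Of the 58, 55 lay within 2-fold, against 294 of all 358 detected genes. The test compares the reads of 2 libraries, not animals or conditions.

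Mir1291 had 32 counts in replicate 1 and 152 in replicate 2, a log2 ratio of 2.25 (95% counting interval 1.71 to 2.87, adjusted p = 4.88e-20 in the exact binomial test), or 4.77-fold. Mir5122 had 22 and 49 counts, for a log2 ratio of 1.16 (0.43 to 1.97, adjusted p = 0.00217 in the exact test). Mir1930, in Ube2g2, had 14 and 32 counts, for a log2 ratio of 1.19 (0.27 to 2.24, adjusted p = 0.0121 in the exact test). The last pair rest on few counts. In edgeR's exact test with the spread estimated from the same 2 libraries, no member passed, with a lowest adjusted p of 0.855 for Mir1291 and 1 member at an unadjusted p under 0.05. In that test 6 of all 358 detected genes passed. The difference tested is itself part of the spread that this test uses, so a lack of calls cannot show that the libraries are alike.

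Below the ratio minimum, Mir1306, Mir1843b, Mir1249 and Mir1247 stood at log2 ratios of 0.90, 0.80, 0.75 and 0.74. Mir6538, Mir3068 and Mir1843a stood at -0.96, -0.78 and -0.46, and Mir1839 at -0.24. The mirtron loci Mir1981 and Mir3102 both stood at 0.04. All are relative to TMM scaling. With library totals in its place, the median of all detected genes moved from -0.06 to -0.49 and the members' calls became 1 higher and 12 lower. Of all 358 detected genes, 18 were then called higher and 79 lower, or 27.1% in all, against 22.4% of the members. Mir122 and Mir206, of liver and skeletal muscle, were higher in replicate 2, with 10996 and 1080041 and 106 and 7815 counts. Mir451a of red blood cells, with 7059 and 1703 counts, and Mir142 of white blood cells, with 5596 and 2025, were lower in replicate 2. Mir486, also an erythroid gene, had 162 and 147 counts and stayed within the 2-fold minimum, at a log2 ratio of -0.12. Endothelial Mir126a, with 540202 and 707963 counts, and neuroendocrine Mir375, with 128331 and 88683, stayed within the 2-fold minimum. The part of these cell types in the members' differences was not tested. The table holds miRNA genes alone, so the labelled tissue could not be checked against protein-coding markers.

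**Figure D4:**
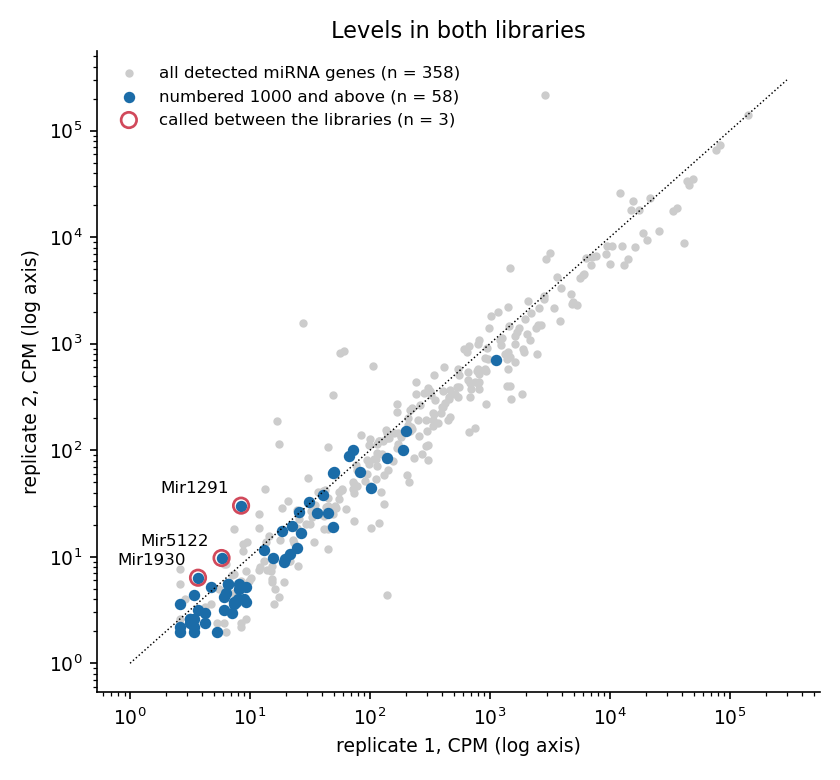
CPM in replicate 1 (horizontal log axis) and replicate 2 (vertical log axis) of 358 detected miRNA genes (grey) and of the 58 numbered 1000 and above (blue). Open rings mark the 3 members called between the libraries, and the dotted line marks equal CPM. The calls use TMM scaling and the plotted CPM do not, so the dotted line is not the line of no difference for the calls.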

How the data were processed

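The deposited tables hold raw read counts for 2202 miRNA genes, 1 table per library, after 4 summary lines. Per the text files beside the tables, the build was mm10 and the annotation GENCODE M21. The aligner and the counter are not named in the sources used. Column 3, the strand column with more counts, was read as the gene's own strand. Replicate 1 held 10720796 reads with 3797107 counts on miRNA genes, and replicate 2 held 11190481 reads with 5034257. Reads mapping to several places (28.0% and 25.0%) had been set aside in the authors' counting, so genes with copies are uncertain.

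All 2202 identifiers matched GENCODE M21, which gave symbols, positions and hosts. CPM were computed over all miRNA genes. Ratios (log2) set replicate 2 against replicate 1, after TMM factors of 1.16 and 0.862 from detected genes, with a prior count of 0.5. The exact two-sided binomial test ran over all 358 detected genes. It was also run on simulated counts whose only noise was counting error. That run cannot show how the test behaves under the spread between these 2 libraries. Intervals are Wilson for shares and Clopper-Pearson for ratios, at 95%. Named genes were the 20 of highest mean CPM, the leading 3 of each class, and called members, and the few others were chosen after their values were seen. The members, classes and lists were chosen with earlier results of these data known. Tools were edgeR 4.0.16 and DESeq2 1.42.0 in R 4.3.3, and scipy 1.17.1, numpy 2.4.6, pandas 2.3.3 and matplotlib 3.10.9 in Python 3.11.15. Alternatives were the column, the count minimum, the scaling, the prior count, the test, either library alone, the region left out and copies.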

Additional observations from a re-analysis of the deposited data

Results flagged for a closer look

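Reads on the opposite strand of a member, in a column that enters no value above, exceeded the 3 counts that a count of 0 allows in both libraries at 6 genes. Each overlaps another miRNA gene on that strand. Mir3544 had 3596 and 4641 such counts, over Mir337. Mir3065 had 1126 and 757, over Mir338, and Mir3071 had 496 and 293, over Mir136. Mir3074-2 had 538 and 697, over Mir24-2, and Mir3074-1 had 140 and 205, over Mir24-1. Mir3107 had 162 and 147, over the erythroid gene Mir486. On their own strand Mir3544, Mir3074-1 and Mir3065 had 82 and 53, 75 and 48, and 31 and 28 counts and were detected, while Mir3107, Mir3071 and Mir3074-2 had 6 and 9, 1 and 3, and 1 and 0. Mir3074-1 and Mir3074-2 share the mature sequence miR-3074-5p. Multimapping reads are not in the counts, so the values of this pair are uncertain.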

How the results depend on the processing

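The number of detected members was 222, 95 and 14 at minimums of 1, 5 and 100 counts, and lay between 55 and 68 under the other alternatives, with 68 in either library alone. Their share of counts was 0.320% in the unstranded column, where Mir126a has 9 and 15 counts, and 0.155% without Mir1839. It lay between 0.206% and 0.286% under the rest. Members called between the replicates numbered 13 of 58 under library totals (22.4%), 7 of 222 at a minimum of 1 count (3.15%) and 0 of 14 at 100 counts. They numbered 0 in edgeR's exact test and with DESeq2's dispersion, with 1 at an unadjusted p under 0.05 in each. Of all genes tested, 97 of 358 were called under library totals (27.1%), 75 of 588 at a minimum of 1 count (12.8%) and 37 of 246 at 100 counts (15.0%). In edgeR 6 of 358 were called and with DESeq2 0 (11 at an unadjusted p under 0.05). Both took the spread from the same 2 libraries that they compared, so few calls there cannot show that the libraries are alike. Mir1930 lost its call with a prior count of 5 (0.98), and Mir5122 and Mir1930 theirs under library totals (0.73 and 0.76). The test needs both libraries, so it was not run with either left out. The cause of these differences was not tested. No paired analysis was possible because the libraries form 1 group.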

Other observations

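The median G and C content of the hairpins was 53.7% over the 646 late-named genes and 46.2% over the 525 genes numbered below 1000. Among the late-named genes the median was 54.6% for the 58 detected, 56.2% for the 301 with counts under the minimum and 51.5% for the 287 with no count. The median annotated length was 82.5 bases for the detected, 69 for those under the minimum and 82 for those with no count. Detected members lay on 19 chromosomes. Chromosome 12 held 8 of its 34 members as detected, Mir1843a, Mir5099, Mir3068, Mir1247 and Mir6538 among them, with 20.8% and 17.3% of the members' counts. The 3 detected members with no entry in the RefSeq table were Mir1949, Mir7219 and Mir7666.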
